A study of Homo sapiens with 4 samples.

Results

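Plasminogen activation and the start of coagulation were followed through 9 genes: the plasminogen activators PLAU and PLAT, the receptors PLAUR and ANXA2, the serpins SERPINE2, SERPINB2 and SERPINB5, tissue factor (F3) and thrombomodulin (THBD). They are the entries of the count table whose Ensembl identifiers belong to these symbols, 9 of 58735 genes, and the rule that picks them goes by symbol. RNA was sequenced from 4 libraries, 1 for each combination of cell line and treatment. MDA-MB-231 (from the ATCC) and SUM159 (a gift from another laboratory) are human lines of triple-negative breast cancer, a form that lacks the estrogen and progesterone receptors and amplified ERBB2. Each line received mebendazole (MBZ), an anthelmintic drug that binds tubulin, at 1 uM, or its vehicle DMSO, for 72 h. A cultured line lacks the other cell types of a tumor. According to the study, the lines were grown in different media, MDA-MB-231 in DMEM and SUM159 in a Ham medium with less serum and with insulin and hydrocortisone, so that line and medium cannot be told apart.

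Plasminogen is a circulating proenzyme that urokinase (PLAU) and tissue plasminogen activator (PLAT) cut into plasmin, a protease that dissolves fibrin and degrades extracellular matrix. Urokinase works at the cell surface on its receptor PLAUR, annexin A2 (ANXA2) holds plasminogen and PLAT there, and serpins trap the activators in inactive complexes. F3 starts the clotting cascade that makes the fibrin, and THBD turns thrombin from a clotting enzyme into an activator of the anticoagulant protein C. PLAU and PLAUR are well known in breast cancer for their link with invasion.

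The libraries held 24897586 counted reads in MDA-MB-231 with DMSO, 17143139 with MBZ, 18708179 in SUM159 with DMSO and 18904501 with MBZ. ESR1 and PGR, the estrogen and progesterone receptor genes, had at most 18 reads in any library, and the mesenchymal marker VIM had at least 20703 and was lower after MBZ in both lines (log2 -0.92 and -0.70). ERBB2 had 1216 to 1996 reads. Of the epithelial markers, EPCAM had 144 and 190 reads in MDA-MB-231 with DMSO and MBZ (log2 0.67), and 6 and 9 in SUM159. CDH1 had 11 and 12 reads in MDA-MB-231 and 0 in both SUM159 libraries. PTPRC, a marker of blood cells, had 8, 23, 216 and 60 reads in the order above, and PECAM1, a marker of endothelium, had 328 to 825 reads, and the part of these markers in the results was not tested. ALB, a marker of liver, had at most 2 reads. Levels are given as CPM, the reads of a gene per 1000000 reads of the library, with library sizes scaled by the trimmed mean of M values (TMM). All intervals are at 95%: exact Poisson for levels, Clopper-Pearson on read shares for fold changes, and Woolf log-ratio intervals for changes of ratios. They cover counting error only, because each group has 1 library. Without molecular identifiers several PCR reads may stem from 1 molecule, so the intervals may be too narrow even for that error. With 1 library in each group, the MBZ and DMSO libraries of a line differ by treatment and by everything else that separates 2 libraries, and no test within a line was possible. A change within a line is therefore called higher or lower when it was at least 1.5-fold at a mean of at least 10 reads. In RNA from whole cultures, fewer cells that express a gene and less RNA per cell cannot be told apart.

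After MBZ, 4 of the 8 genes that could be compared in MDA-MB-231 were at least 1.5-fold higher (PLAT, SERPINB2, F3 and THBD) and 0 were lower, where 18.3% of the 15142 genes compared were higher and 15.8% lower. In SUM159, 6 of 9 were higher (PLAUR, ANXA2, SERPINB2, SERPINB5, F3 and THBD) and 0 were lower, against 21.5% higher and 21.7% lower among 15674 genes. Over the members compared, the median log2 change was 0.45 for MDA-MB-231 and 1.32 for SUM159, where that of all genes compared was -0.018 and -0.034. SERPINB2, F3 and THBD were higher in both lines, as were 6.12% of the 13733 genes compared in both, and 0 members were lower in both, against 4.71%. SERPINB2, with 0 reads in both DMSO libraries, could be compared only through its MBZ libraries and could count only as higher. Without it, 3 of 7 were higher in MDA-MB-231 (median log2 0.22), 5 of 8 in SUM159 (median 0.96) and 2 of 7 in both lines. The plot of levels shows each gene in each library.

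**Figure D1:**
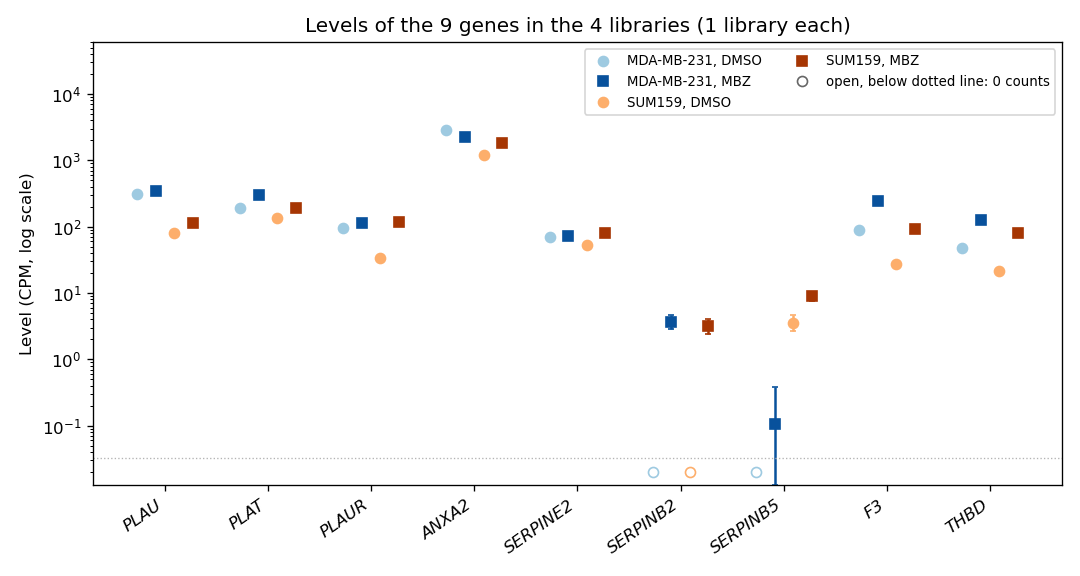
CPM on a log scale for the 9 genes in the 4 libraries, with 1 point per library and bars for the 95% counting interval. Open symbols under the dotted line mark libraries with 0 reads; SERPINB2 has 0 reads in both DMSO libraries and 3.63 and 3.15 CPM with MBZ, and the 4 libraries of ANXA2 lie between 1200.2 and 2848 CPM.

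PLAT (ENSG00000104368, GRCh38 chr8:42174718-42207709, - strand, 14 exons), tissue plasminogen activator, which works mainly on fibrin, had 4368 and 5792 reads in MDA-MB-231 with DMSO and MBZ, and 2227 and 3884 in SUM159. Its levels were 188, 305, 134 and 188 CPM. SUM159 with MBZ thus stood at the level of MDA-MB-231 with DMSO, their intervals overlapping, and MDA-MB-231 with MBZ was the highest. PLAT was 1.60-fold higher after MBZ in MDA-MB-231 (log2 0.68, interval 0.62 to 0.74) and 1.40-fold in SUM159 (0.49, 0.41 to 0.56), the latter under the threshold.

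PLAU (ENSG00000122861, chr10:73909177-73917496, + strand, 11 exons), which encodes urokinase, had 7298 reads in MDA-MB-231 with DMSO and 6637 with MBZ, and 1346 and 2325 in SUM159. These are levels of 314, 349, 81.3 and 113 CPM. Both MDA-MB-231 libraries were above both SUM159 libraries, and no counting intervals overlapped. The log2 fold change after MBZ was 0.14 (interval 0.087 to 0.18) in MDA-MB-231 and 0.47 (0.37 to 0.57) in SUM159, under 1.5-fold in both. An antisense gene, C10orf55, shares 915 exonic bases with PLAU, and without a stated strand setting their reads cannot be told apart.

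PLAUR (ENSG00000011422, chr19:43646095-43670547, - strand, 7 exons), the receptor that focuses urokinase on the cell surface, had 2229 and 2152 reads in MDA-MB-231 with DMSO and MBZ, and 557 and 2459 in SUM159. In CPM it was 95.9 and 113 in MDA-MB-231 and 33.6 and 119 in SUM159. The SUM159 library with DMSO was the low one, and the SUM159 and MDA-MB-231 libraries with MBZ had overlapping intervals. PLAUR was 3.55-fold higher after MBZ in SUM159 (log2 1.83, interval 1.69 to 1.96) and 1.17-fold in MDA-MB-231 (0.22, 0.14 to 0.31).

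ANXA2 (ENSG00000182718, chr15:60347134-60402883, - strand, 13 exons), which binds plasminogen at the membrane as a complex with S100A10, had 66192 and 42782 reads in MDA-MB-231 with DMSO and MBZ, and 19881 and 37604 in SUM159. Its levels were 2848, 2251, 1200.2 and 1823 CPM, so that the lines lay closer together with MBZ than with DMSO. ANXA2 was at 0.781 of its DMSO level in MDA-MB-231 (log2 -0.36, interval -0.37 to -0.34) and was 1.52-fold higher in SUM159 (0.60, 0.58 to 0.63), just past the threshold. The direction in MDA-MB-231 was the same under every scaling tried, with log2 values from -0.41 (DESeq2 size factors) to -0.091 (total counts). Of the genes compared in both lines, 20.0% had intervals that, like those of ANXA2, lay below 0 in one line and above it in the other.

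The partner S100A10, with 16529 and 7207 reads in MDA-MB-231 and 2767 and 5475 in SUM159, was lower in the first line (log2 -0.93) and higher in the second (0.67). The processed pseudogene ANXA2P2, nearly identical to ANXA2, had 202, 129, 64 and 115 reads. In each line its change was close to that of ANXA2, with log2 -0.37 and 0.53, so that 328 and 332 ANXA2 reads were counted per ANXA2P2 read in MDA-MB-231 with DMSO and MBZ, and 311 and 327 in SUM159. Reads of near-identical copies can be split or dropped by the counting, so the values of ANXA2P2 are uncertain. ANXA2P1 had at most 2 reads and ANXA2P3 had 0.

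SERPINE2 (ENSG00000135919, chr2:223975045-224039318, - strand, 9 exons), protease nexin 1, inhibits thrombin and both plasminogen activators. Its reads numbered 1602 and 1396 in MDA-MB-231 with DMSO and MBZ, and 880 and 1639 in SUM159, or 68.9, 73.4, 53.1 and 79.5 CPM. SUM159 with DMSO was below the other libraries, whose intervals overlapped from one to the next in order of level. The change in SUM159 was 1.496-fold (log2 0.58, interval 0.46 to 0.70), just under the threshold, and in MDA-MB-231 it was 0.074 (-0.031 to 0.18).

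SERPINB2 (ENSG00000197632, chr18:63871692-63903888, + strand, 8 exons), plasminogen activator inhibitor 2, inhibits urokinase and is known as a gene that is nearly silent until a stress or inflammatory stimulus. It had 0 reads in both DMSO libraries, 69 in MDA-MB-231 with MBZ and 65 in SUM159 with MBZ. The 2 libraries with MBZ were alike, at 3.63 and 3.15 CPM, and differed between the lines by a log2 of -0.20 (interval -0.72 to 0.31). Against a floor of 3 reads per library, SERPINB2 was at least 27.8-fold higher after MBZ in MDA-MB-231 and at least 17.4-fold higher in SUM159. An annotated gene without a symbol, ENSG00000289724, shares 547 exonic bases with SERPINB2 on the same strand. The 250 bases before its RefSeq start (GRCh38.p14, chr18:63887455-63887704, + strand, 5′ to 3′) are shown because SERPINB2 went from 0 reads to a measurable level in both lines. That start, 63887705, is also that of the canonical GENCODE transcript. A longer transcript makes the gene begin at 63871692, so the stretch lies inside the annotated gene, and 0 of its bases are in an exon of SERPINB2. The capitals mark a TATA motif 30 bases before the start:
SERPINB2: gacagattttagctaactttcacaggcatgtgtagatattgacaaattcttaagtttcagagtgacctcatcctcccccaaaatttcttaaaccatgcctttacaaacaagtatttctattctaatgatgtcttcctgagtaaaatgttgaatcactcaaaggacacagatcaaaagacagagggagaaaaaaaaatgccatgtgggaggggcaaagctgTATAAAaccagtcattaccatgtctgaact

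SERPINB5 (ENSG00000206075, chr18:63476958-63505085, + strand, 7 exons), maspin, is a clade B serpin of normal mammary epithelium that does not inhibit proteases in the usual way. It had 0 and 2 reads in MDA-MB-231 with DMSO and MBZ, and 59 and 183 in SUM159. It was thus measurable in SUM159, at 3.56 CPM with DMSO and 8.87 with MBZ, and both MDA-MB-231 libraries were at or under the floor of 3 reads, where no fold is given. In SUM159 it was 2.49-fold higher after MBZ (log2 1.32, interval 0.89 to 1.77).

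F3 (ENSG00000117525, chr1:94529173-94541759, - strand, 6 exons), tissue factor, had 2064 and 4585 reads in MDA-MB-231 with DMSO and MBZ, and 451 and 1885 in SUM159. Its levels were 88.8 and 241 CPM in MDA-MB-231 and 27.2 and 91.4 in SUM159. In both lines the MBZ library was above the DMSO library, and SUM159 with MBZ overlapped MDA-MB-231 with DMSO. F3 was 2.68-fold higher after MBZ in MDA-MB-231 (log2 1.42, interval 1.35 to 1.5) and 3.36-fold in SUM159 (1.75, 1.60 to 1.90). The 250 bases before its start (RefSeq, GRCh38.p14, chr1:94541760-94542009, - strand, 5′ to 3′) are shown as those of the abundant member with a change past 2-fold in both lines that the promoter table held. From the left, the capitals mark an AP-1 motif (TGAGTCA, the match being on the opposite strand) 210 bases before the start, GGGCGG or its reverse complement, the SP1 motif, in 4 places, and TTTATA, the reverse complement of the TATA motif, 28 bases before the start:
F3: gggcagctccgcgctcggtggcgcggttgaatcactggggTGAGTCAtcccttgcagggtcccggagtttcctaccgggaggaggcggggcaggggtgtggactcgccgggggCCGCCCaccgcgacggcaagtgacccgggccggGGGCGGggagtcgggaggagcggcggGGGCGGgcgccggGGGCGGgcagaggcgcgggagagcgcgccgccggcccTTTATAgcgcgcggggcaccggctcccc

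THBD (ENSG00000178726, chr20:23045633-23049672, - strand, a gene of 1 exon), thrombomodulin, had 1106 and 2397 reads in MDA-MB-231 with DMSO and MBZ, and 358 and 1637 in SUM159. These were 47.6, 126, 21.6 and 79.4 CPM, and no intervals of the 4 libraries overlapped. THBD was 2.62-fold higher after MBZ in MDA-MB-231 (log2 1.39, interval 1.28 to 1.49) and 3.67-fold in SUM159 (1.88, 1.71 to 2.05). F3, which starts clotting, and THBD, which restrains it, therefore kept nearly the same ratio of reads. There were 1.87 and 1.91 F3 reads per THBD read in MDA-MB-231 with DMSO and MBZ, and 1.26 and 1.15 in SUM159. The interval of the log2 change of this ratio ran from -0.092 to 0.16 in MDA-MB-231 and from -0.35 to 0.092 in SUM159. The plot of fold changes sets the 9 genes side by side.

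**Figure D2:**
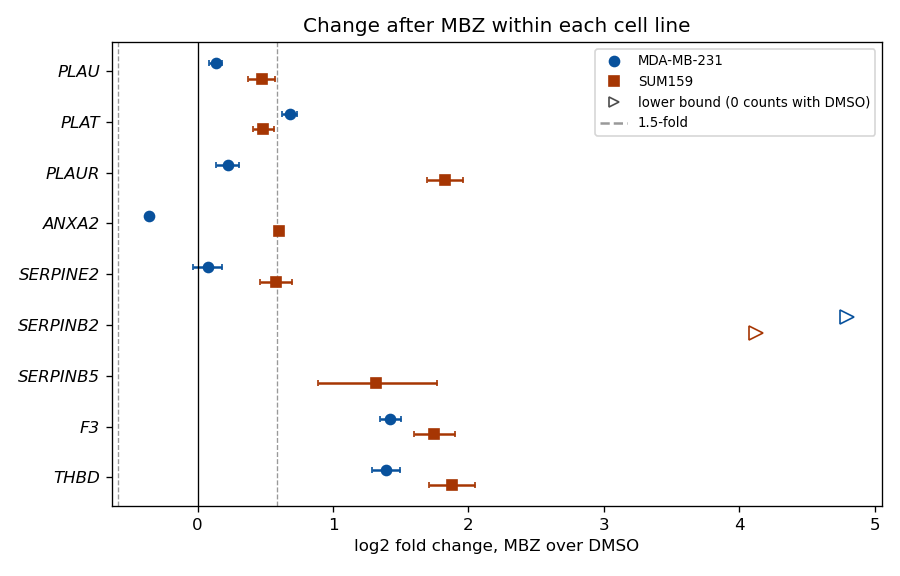
The log2 fold change of MBZ over DMSO for each gene in MDA-MB-231 (circles) and SUM159 (squares), with 95% counting intervals; open triangles are lower bounds for SERPINB2, which had 0 reads with DMSO. ANXA2 lies at -0.36 and 0.60, PLAUR at 0.22 and 1.83, and F3 and THBD between 1.39 and 1.88 in both lines.

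Within a line, the 2-fold level separated the genes further. Of the members, 3 of 8 in MDA-MB-231 and 5 of 9 in SUM159 were at least 2-fold higher, where 9.05% and 12.7% of all genes compared were. Without SERPINB2, which could count only as higher, they were 2 of 7 and 4 of 8. At least 2-fold lower were 0 members in either line, against 5.14% and 10.7%. Ranked among all genes compared by fold change, F3 was above 95.1% and THBD above 94.9% of them in MDA-MB-231, and in SUM159 they were above 94.0% and 94.7%.

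Whether MBZ moved a gene in both lines was tested over the 4 libraries with edgeR's quasi-likelihood test, with cell line as a term and the lines as the replicates, which left 1 residual degree of freedom. Of the 9 genes, 0 had a Benjamini-Hochberg adjusted p under 0.05, against 0.00621% of 16100 genes (1 gene). At an unadjusted p under 0.05 there were 4, PLAUR, SERPINB2, F3 and THBD, all higher, against 3.91% of all genes higher and 3.24% lower. The fitted log2 change of F3 was 1.62 (SE 0.30, adjusted p = 0.422) and that of THBD 1.67 (SE 0.30, adjusted p = 0.422), each positive in 2 of 2 lines. SERPINB2, with 0 reads in both DMSO libraries, entered the fit only through the MBZ libraries where it was high, so its p values (adjusted p = 0.354 here) are no independent test and its fitted change is not given. PLAUR had 1.06 (SE 0.43, adjusted p = 0.689), PLAT 0.62 (SE 0.30, adjusted p = 0.715), and ANXA2 0.16 (SE 0.51, adjusted p = 0.960). The call on F3 and THBD depended on the tool: DESeq2's Wald test gave adjusted p values of 0.00242 and 0.00602, where 0.301% of genes were called higher. With every gene of at least 1 count in the quasi-likelihood test, both were called as well, as were 0.474% of genes for higher. Over the 4 other fits their adjusted p ranged from 0.00210 and 0.00124 to 1.00. Whether a gene's change differed between the lines could not be tested, since that fit has no residual degrees of freedom.

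The difference between the lines, which includes that between their media, was tested in the same fit. The 2 libraries of a line, which differ in treatment, stood as its replicates. The spread behind these p values is therefore not that between cultures of a line. Over both treatments, edgeR's quasi-likelihood test called 3 of 9 genes: SERPINB5 was higher in SUM159, as were 11.6% of genes, and PLAU and F3 were lower, as were 9.85%. PLAU had a log2 difference, SUM159 over MDA-MB-231, of -1.74 (SE 0.31, adjusted p = 0.0106) and F3 of -1.50 (SE 0.29, adjusted p = 0.0142). SERPINB5 had at most 2 reads in MDA-MB-231 and entered the fit only through SUM159, so that its call is a description and its fitted difference is not given. THBD had -0.85 (SE 0.29, adjusted p = 0.0825), PLAUR -0.67 (adjusted p = 0.315), ANXA2 -0.73 (adjusted p = 0.358), PLAT -0.54 (adjusted p = 0.244), SERPINE2 -0.084 (adjusted p = 0.866) and SERPINB2 -0.14 (adjusted p = 0.927).

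For several genes the gap between the lines was narrower with MBZ. With DMSO, PLAUR was lower in SUM159 by a log2 of -1.51, and with MBZ the difference was 0.075 (interval -0.0093 to 0.16). ANXA2 went from -1.25 to -0.30 and THBD from -1.14 to -0.67. PLAU, at -1.95 and -1.63, and F3, at -1.71 and -1.40, kept most of the gap. PLAT went the other way, from -0.48 to -0.69. These differences compare single libraries and were not tested.

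To compare levels between genes on a scale that takes their length into account, RPKM was used, which is CPM divided by the exon length in kilobases. With merged exons, ANXA2 was the highest of the 9 in all 4 libraries, from 104 RPKM in SUM159 with DMSO to 246 in MDA-MB-231 with DMSO, and PLAU was next in all 4, from 27.6 in SUM159 with DMSO to 118 in MDA-MB-231 with MBZ. The order below ANXA2 depended on the length used: by the canonical transcript PLAU was next after ANXA2 in both MDA-MB-231 libraries, came after PLAT in SUM159 with DMSO, and came after PLAUR and PLAT in SUM159 with MBZ. SERPINB2, with merged exons, was at 1.32 and 1.15 RPKM in the MBZ libraries of MDA-MB-231 and SUM159.

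Of 25 other genes of the system, 16 could be compared in MDA-MB-231, of which 3 were higher and 4 lower (median log2 -0.070), and 18 in SUM159, of which 5 were higher and 9 lower (median -0.41). The shares over all genes compared in MDA-MB-231 were 18.3% (higher) and 15.8% (lower), and those in SUM159 21.5% and 21.7%. Several of the genes called passed the filter only through the library where they were high. In SUM159 they included A2M (18 and 2 reads with DMSO and MBZ), SERPING1 (63 and 6) and SERPINF2 (23 and 9), all lower. In MDA-MB-231 they included HGFAC (7 and 16, higher) and SERPINA5 (36 and 7, lower). SERPINI1, a neuronal inhibitor of PLAT, was higher in both, with log2 1.64 and 0.98. MRC2, a collagen receptor that associates with PLAUR, had 3025 and 822 reads in MDA-MB-231 and 10755 and 2652 in SUM159 and was lower in both (log2 -1.61 and -2.34), as was SERPINA5, the protein C inhibitor (-2.07 and -1.60). SERPINA5 had few reads, 36 and 7 in MDA-MB-231 (interval -3.50 to -0.90) and 71 and 29 in SUM159 (-2.28 to -0.97). PLG, plasminogen itself, had 0 reads in all 4 libraries.

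Of 29 other coagulation genes, 14 could be compared in MDA-MB-231 (3 higher, 4 lower, median log2 -0.15) and 15 in SUM159 (3 higher, 5 lower, median -0.28). Across the whole set of genes, 18.3% rose past the threshold in MDA-MB-231 and 21.5% in SUM159, while 15.8% and 21.7% fell past it. FGG, with 3 and 17 reads in SUM159 with DMSO and MBZ, reached a mean of 10 reads only through the MBZ library. The inhibitors of the F3 pathway went opposite ways. TFPI, which blocks the complex that F3 forms with factor VII, had 2142 and 1144 reads in MDA-MB-231 and 2820 and 1372 in SUM159, with log2 -0.63 and -1.36. TFPI2, a relative that inhibits plasmin among other proteases, had 556 and 1252 reads in MDA-MB-231 and 1825 and 22290 in SUM159, with log2 1.44 and 3.29. F2R, the thrombin receptor, was lower in both lines (log2 -0.64 and -2.49). Over both lines the adjusted p was 0.609 for TFPI and 0.441 for TFPI2. The plot of both lines places these genes beside the members.

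**Figure D3:**
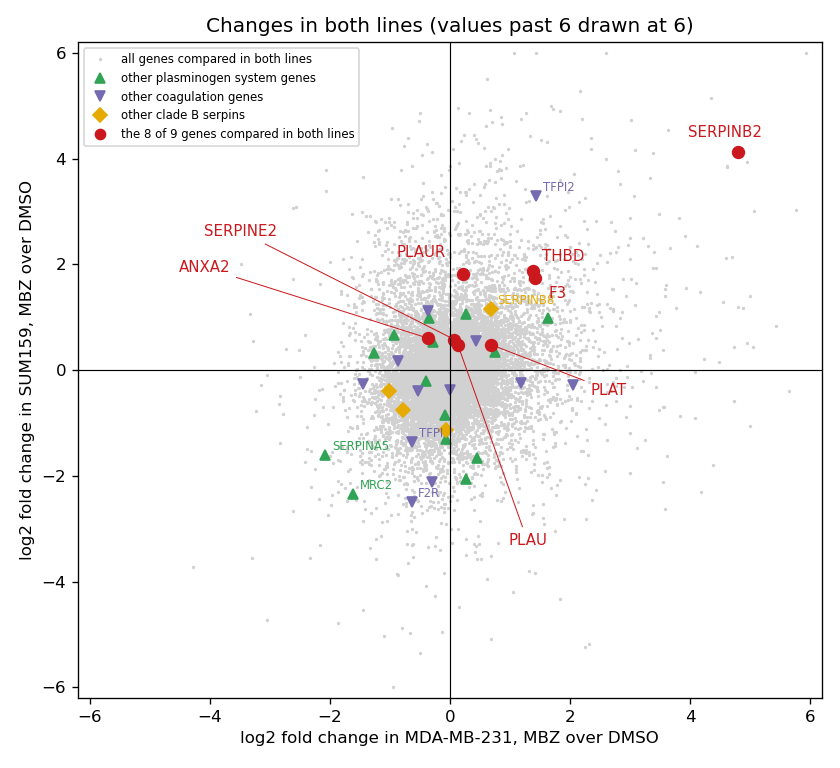
The log2 fold change after MBZ in MDA-MB-231 (x axis) against SUM159 (y axis) for the 13733 genes compared in both lines (gray) and the named lists; points of genes with 0 reads in a library are bounds. SERPINB2, F3 and THBD lie in the upper right with TFPI2, and MRC2, SERPINA5, F2R and TFPI lie in the lower left.

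Ratios of reads inside a library do not depend on the scaling between libraries, and the pairs were chosen after the values were seen. PLAU per PLAUR was 3.27 and 3.08 in MDA-MB-231, and in SUM159 it was 2.42 with DMSO and 0.946 with MBZ. The log2 change of this ratio was -0.086 (interval -0.18 to 0.012) in MDA-MB-231 and -1.35 (-1.52 to -1.19) in SUM159.

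F3 per TFPI was 0.964 in MDA-MB-231 with DMSO and 4.01 with MBZ, and 0.160 and 1.37 in SUM159, so that the ratio was higher with MBZ in both lines. Gene length was not taken into account in these ratios, which are compared only between libraries. F3 per TFPI2 was 3.71 and 3.66 in MDA-MB-231 and 0.247 and 0.0846 in SUM159. THBD per PROCR, the receptor that presents protein C to the complex of thrombin and THBD, was 2.67 and 5.17 in MDA-MB-231 and 0.359 and 0.900 in SUM159. ANXA2 per S100A10 was 4.0 and 5.94 in MDA-MB-231 and 7.19 and 6.87 in SUM159.

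**Figure D4:**
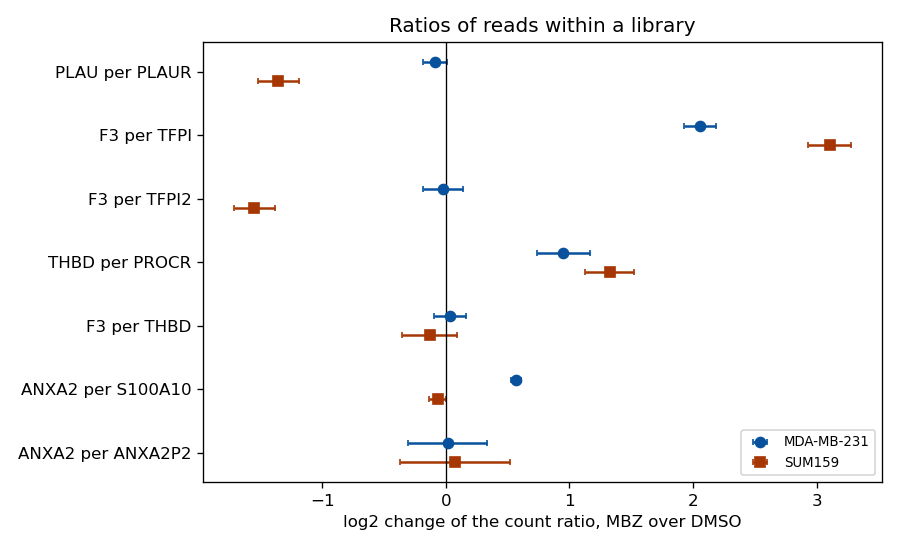
The log2 change, MBZ over DMSO, of the ratio of reads of 2 genes in the same library, for MDA-MB-231 (circles) and SUM159 (squares) with 95% counting intervals. PLAU per PLAUR lies at -0.086 and -1.35, F3 per TFPI at 2.06 and 3.10, and F3 per THBD overlaps 0 in both lines.

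SERPINB2 and SERPINB5 lie in a cluster of 10 clade B serpins on chromosome 18 that spans 542822 bases, and the other serpins there were examined for that reason. Of the other 8, SERPINB3, SERPINB4, SERPINB7 and SERPINB8 could be compared in SUM159 and were higher after MBZ, where 21.5% of all genes compared were. SERPINB7, like SERPINB2, passed the filter only through the library with MBZ and could count only as higher, which leaves 3 of 3. SERPINB4 had 145 and 839 reads in SUM159 with DMSO and MBZ, SERPINB3 80 and 312, SERPINB7 1 and 29, and SERPINB8 133 and 368. SERPINB3 and SERPINB4 are near-identical copies whose reads the counting could split, so each is uncertain. In MDA-MB-231, 7 of the 10 had 0 reads in both libraries, and SERPINB8 was the one besides SERPINB2 that could be compared, with 228 and 303 reads (log2 0.68).

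The 3 clade B serpins of chromosome 6 went the other way or stayed under 1.5-fold. In each line 0 of 3 were higher and 2 were lower, where 15.8% of all genes compared were lower in MDA-MB-231 and 21.7% in SUM159. SERPINB6 was lower in both (log2 -0.78 and -0.76), SERPINB9 in MDA-MB-231 (-1.02) and SERPINB1 in SUM159 (-1.13). These serpins mainly inhibit proteases inside cells. In all, of the 11 clade B serpins other than the members, 1 was higher and 2 lower of 4 compared in MDA-MB-231, and 4 were higher and 2 lower of 7 in SUM159, or 3 and 2 of 6 without SERPINB7. The shares of higher genes over all compared were 18.3% and 21.5%.

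**Figure D5:**
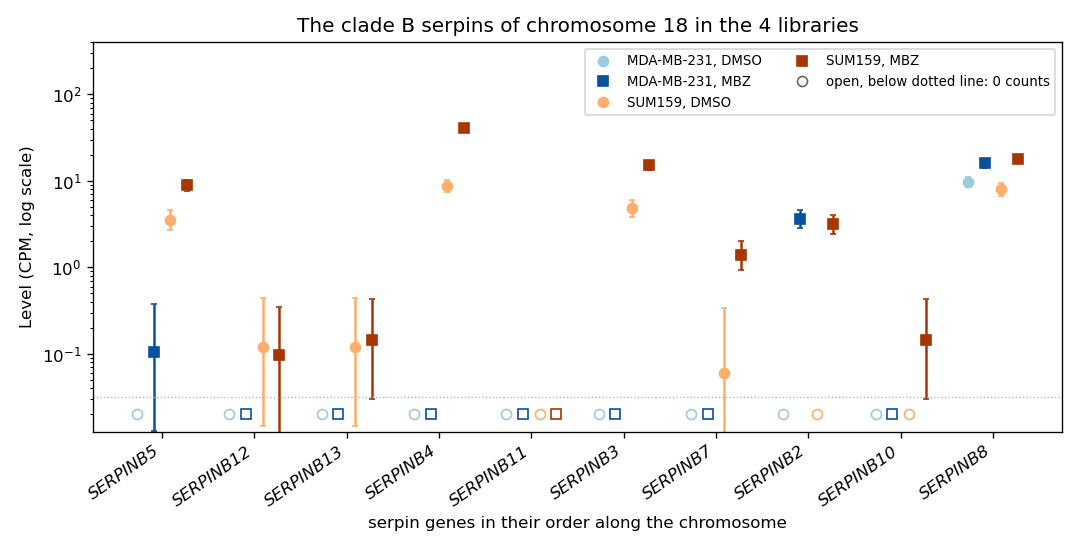
CPM on a log scale, with 95% counting intervals, for the 10 clade B serpins of chromosome 18 in their order along it; open symbols under the dotted line mark 0 reads. SERPINB5, SERPINB4, SERPINB3, SERPINB7, SERPINB2 and SERPINB8 are higher in SUM159 with MBZ than with DMSO, and most of the genes have 0 reads in MDA-MB-231.

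RefSeq (GRCh38.p14) promoters were found for 7 of the 9 genes; THBD and PLAT are only named here. In the 250 bases before the start, the AP-1 motif TGACTCA, on either strand, was present in 3 of 7, F3, PLAUR and ANXA2, and in 4.2% of 35116 promoters. TATAAA, also on either strand, was present in 3 of 7, F3, ANXA2 and SERPINB2, and in 10.7% of promoters, and GGGCGG in 5 of 7 and 42.6%, again on either strand. The shares are per promoter and the counts per gene: PLAU and SERPINE2 have 2 promoters each and count where either holds the motif, and only 1 of the 2 of PLAU holds GGGCGG. TGACGTCA, the cyclic AMP response element, was in 0 of 7 and 1.65%. These starts are those of RefSeq transcripts, and the 250 bases can lie in exons of other GENCODE transcripts of the same gene, as all 250 of PLAUR and 134 of ANXA2 do. So do 164 bases of a promoter of SERPINE2, and 5 and 28 bases of the promoters of PLAU. Neither start of SERPINE2 is that of its canonical transcript. No match overlapped another in the sequences printed above. A match is a description of these letters and not of a bound site.

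For each gene, the genes with the most similar pattern were found by the distance between log2 CPM values (prior count of 2) over the 4 libraries, each centered on its own mean, among the 11152 genes that averaged 100 reads or more. Nearest to SERPINB2 were IL24, ATF3 and FOSB, at distances of 1.25, 2.05 and 2.06. SERPINB2 averaged well under 100 reads itself, and with 0 reads in both DMSO libraries its pattern, and so these distances, depend on the prior count. PLAUR was nearest to LPXN (0.079), THBD to TRAF1 (0.26), F3 to CPEB2 (0.40), PLAU to SYTL4 (0.054) and ANXA2 to PRIM2 (0.053), with ANXA2P2 next (0.086). With 4 libraries many genes can share a pattern, and nothing on shared control follows.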

How the data were processed

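Poly-A RNA of 4 libraries, 1 per group, was sequenced. Per the labels and the study's methods, the authors aligned reads with STAR 2.5 to GRCh38 (hg38), counted them per gene with HTSeq 0.6.1 and named edgeR 3.16.5; the annotation release and the strand setting are not given in the sources used here. The deposited values are raw counts per Ensembl gene. Reads shared by overlapping or near-identical genes can be lost from such counts. The sequencing depth was 17143139 to 24897586 counts. Without the TMM scaling, a count of 3 at these depths is 0.120 to 0.175 CPM.

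Groups were taken from the labelled line and dose. Here R 4.3.3 with edgeR 4.0.16 was used: TMM within each pair for fold changes, TMM over 4 libraries for levels, and a prior count of 0.125 (2 for the search of similar patterns). The quasi-likelihood test used line and treatment as terms, filterByExpr (16100 genes) and Benjamini-Hochberg adjustment over all genes; its common biological coefficient of variation was 0.323. Nothing states that the libraries came from separate cultures. DESeq2 1.42.0, where 2497 adjusted p values were not available and stayed so, other scalings, filters and thresholds were alternatives; leaving out SERPINB2 or SERPINB7 and the transcript length were added after seeing the data. Positions and lengths are from GENCODE 44. Named genes were the 9 members, listed genes at least 1.5-fold changed in both lines, and the 3 nearest in pattern, with further genes named after their values were seen. An item of the plasminogen list is not reported here and was left out of its counts. The scripts were tested on simulated data. The members and lists were chosen with earlier results of these data known.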

Additional observations from a re-analysis of the deposited data

Results flagged for a closer look

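ANXA2 lay below 0 in one line and above 0 in the other, beyond its counting intervals, with a log2 fold change after MBZ of -0.36 in MDA-MB-231 and 0.60 in SUM159. So did its partner S100A10, at -0.93 and 0.67, and its pseudogene ANXA2P2, at -0.37 and 0.53. PTPRC did the reverse, at 1.78 and -2.16, on 8 to 216 reads. The difference between the lines was not tested, and 20.0% of the 13733 genes compared in both lines did the same in one order or the other.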

How the results depend on the processing

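The number of members at least 1.5-fold higher was 3 to 4 in MDA-MB-231 and 5 to 9 in SUM159 over the alternatives, and 0 were lower under each of them. In SUM159 it was 7 with DESeq2 size factors, where SERPINE2 passed the threshold, and 9 with total counts, which shifted the log2 median over all genes by 0.27 (MDA-MB-231) and 0.30 (SUM159). The test of a shared change called 0 members, but 3 (SERPINB2, F3 and THBD) with DESeq2's Wald test (0.301% of all genes higher) and 3 with every gene of at least 1 count (0.474%); SERPINB2 entered only through the MBZ libraries, and the cause was not tested. The SERPINB2 line difference reversed from -0.14 to 0.026 with DESeq2 (adjusted p = 0.995). The line difference called 3 members in every fit, and SERPINB5 among them entered only through SUM159. In the main fit, 11.6% of all genes were called higher in SUM159 and 9.85% lower. The MBZ and DMSO libraries of a line were paired only through cell line, a term of the test itself, and without that term 0 members were called. No finer pairing was possible, because each group has 1 library. Leaving out a library would leave a group empty. Depth limits SERPINB2 and SERPINB5, which had at most 183 reads.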
